A study of Mus musculus with 38 samples.

Results

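The collagen genes are protein-coding genes that carry a mouse symbol made of Col, a number, the letter a and a second number. Of the 48709 genes counted in the hippocampus 44 have such a symbol, and 43 are described, since 1 is not analysed here. The rule uses the symbol and no measured value. The hippocampi came from 38 C57BL/6 mice in 8 groups, given by cohort, genotype and chow. In the pre-plaque cohort, aged 6 months, each genotype (WT and APPPS1ΔE9) had 4 mice on placebo chow and 4 on anle138b. In the post-plaque cohort, aged 10 months, WT mice numbered 5 on placebo and 5 on anle138b, and APPPS1ΔE9 mice 5 on placebo and 7 on anle138b. APPPS1ΔE9 mice carry a mutant amyloid precursor protein and a presenilin 1 without exon 9 as transgenes under the prion protein promoter, deposit amyloid, and model the amyloid side of Alzheimer's disease only. Anle138b is a small molecule that binds protein oligomers and was given in the chow, and placebo chow lacked it.

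Collagens are extracellular proteins in which chains wind into a helix, and each gene encodes a chain. Fibrillar collagens (types I, II, III, V, XI, XXIV and XXVII) form the fibrils of connective tissue. Network-forming collagens (types IV, VIII and X) form networks, and type IV forms the sheets of basement membranes. Beaded-filament collagens (type VI and relatives) link cells to the matrix around them. FACIT collagens decorate fibrils, multiplexins sit in basement membranes, and transmembrane collagens stay anchored in the cell surface. The brain parenchyma has few fibrils. Its collagen lies mainly in the vessel walls, in the fibroblast-rich meninges and in the stroma of the choroid plexus, the secretory tissue of the ventricles that borders the hippocampus, while some neurons make transmembrane collagens.

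Total counts were between 15847985 and 31895808 per mouse. App, the gene of the amyloid precursor protein, had 1522 to 1799 CPM (counts scaled to an equal library total) in the 18 WT mice and 3274 to 4286 CPM in the 20 APPPS1ΔE9 mice, so that the genotypes did not overlap. In 4 libraries, those titled as WT on placebo chow at 6 months, another label names the transgene, and their App level, 1623 to 1799 CPM, was within the range of the other WT mice, 1522 to 1783 CPM. The methods describe male mice, but 12 of 38 libraries had 1154 to 1453 CPM of Xist, the RNA of the inactive X chromosome, and at most 1.89 CPM of 4 Y-linked genes together. Of these 12 mice, 11 were WT. The other 26 libraries had at most 5.41 CPM of Xist. In collagen genes described below, 3 libraries stood apart from their groups, anle138b-treated WT mouse 2 at 6 months, and placebo-treated APPPS1ΔE9 mouse 2 and anle138b-treated WT mouse 4 at 10 months. The labels give no sequencing run, but the same sample and lane numbers recur in both cohorts for different mice. Within a cohort the lanes largely followed the groups. Each library is a separate mouse by its label. In whole tissue, fewer cells of a type and less RNA per cell cannot be told apart.

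Of the 43 collagen genes, 42 passed the filter on low counts over all 38 mice. Col10a1, the chain of the cartilage network collagen type X, did not, with at most 0.203 CPM and no read in 4 mice. Levels were compared between genes per length, as CPM per kilobase of all annotated exons of the gene together (FPKM). Col6a1, a chain of type VI collagen, was highest with 19.6 ± 16.2 FPKM (mean ± SD, n = 38), and its SD was nearly as large as its mean. Col4a2 and Col4a1, the chains of the collagen found in every basement membrane, followed with 14.2 ± 4.19 and 10.1 ± 2.48 FPKM. Col25a1, a transmembrane collagen of neurons whose shed part is known from amyloid plaques, had 8.63 ± 1.26 FPKM, and Col9a3, a chain of the FACIT collagen type IX, had 6.92 ± 5.87 FPKM. Each of these 5 levels differed from the next by less than the larger of both SDs. The highest fibrillar members were Col11a2 with 4.97 ± 1.86 FPKM and Col11a1 with 2.54 ± 1.29 FPKM, both chains of type XI collagen, which is best known from cartilage. The chains of the main connective tissue fibrils were lower, with 1.06 ± 0.384 FPKM for Col1a1, 1.13 ± 0.508 for Col1a2 and 0.283 ± 0.153 for Col3a1.

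Summed over the 43 genes, network-forming collagens made up 29.3 ± 4.87% of the collagen FPKM of a mouse, beaded-filament collagens 21.3 ± 9.78%, FACIT collagens 18.6 ± 5.02%, fibrillar collagens 16.2 ± 3.41% and transmembrane collagens 12.3 ± 2.55% (mean ± SD, n = 38). The multiplexins Col15a1 and Col18a1 together made up 1.92 ± 0.438%, and Col7a1, the collagen of the anchoring fibrils of skin, 0.477 ± 0.220%. The share of the beaded-filament collagens varied most, between 8.97% and 41.6% of the collagen FPKM of a mouse.

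**Figure D1:**
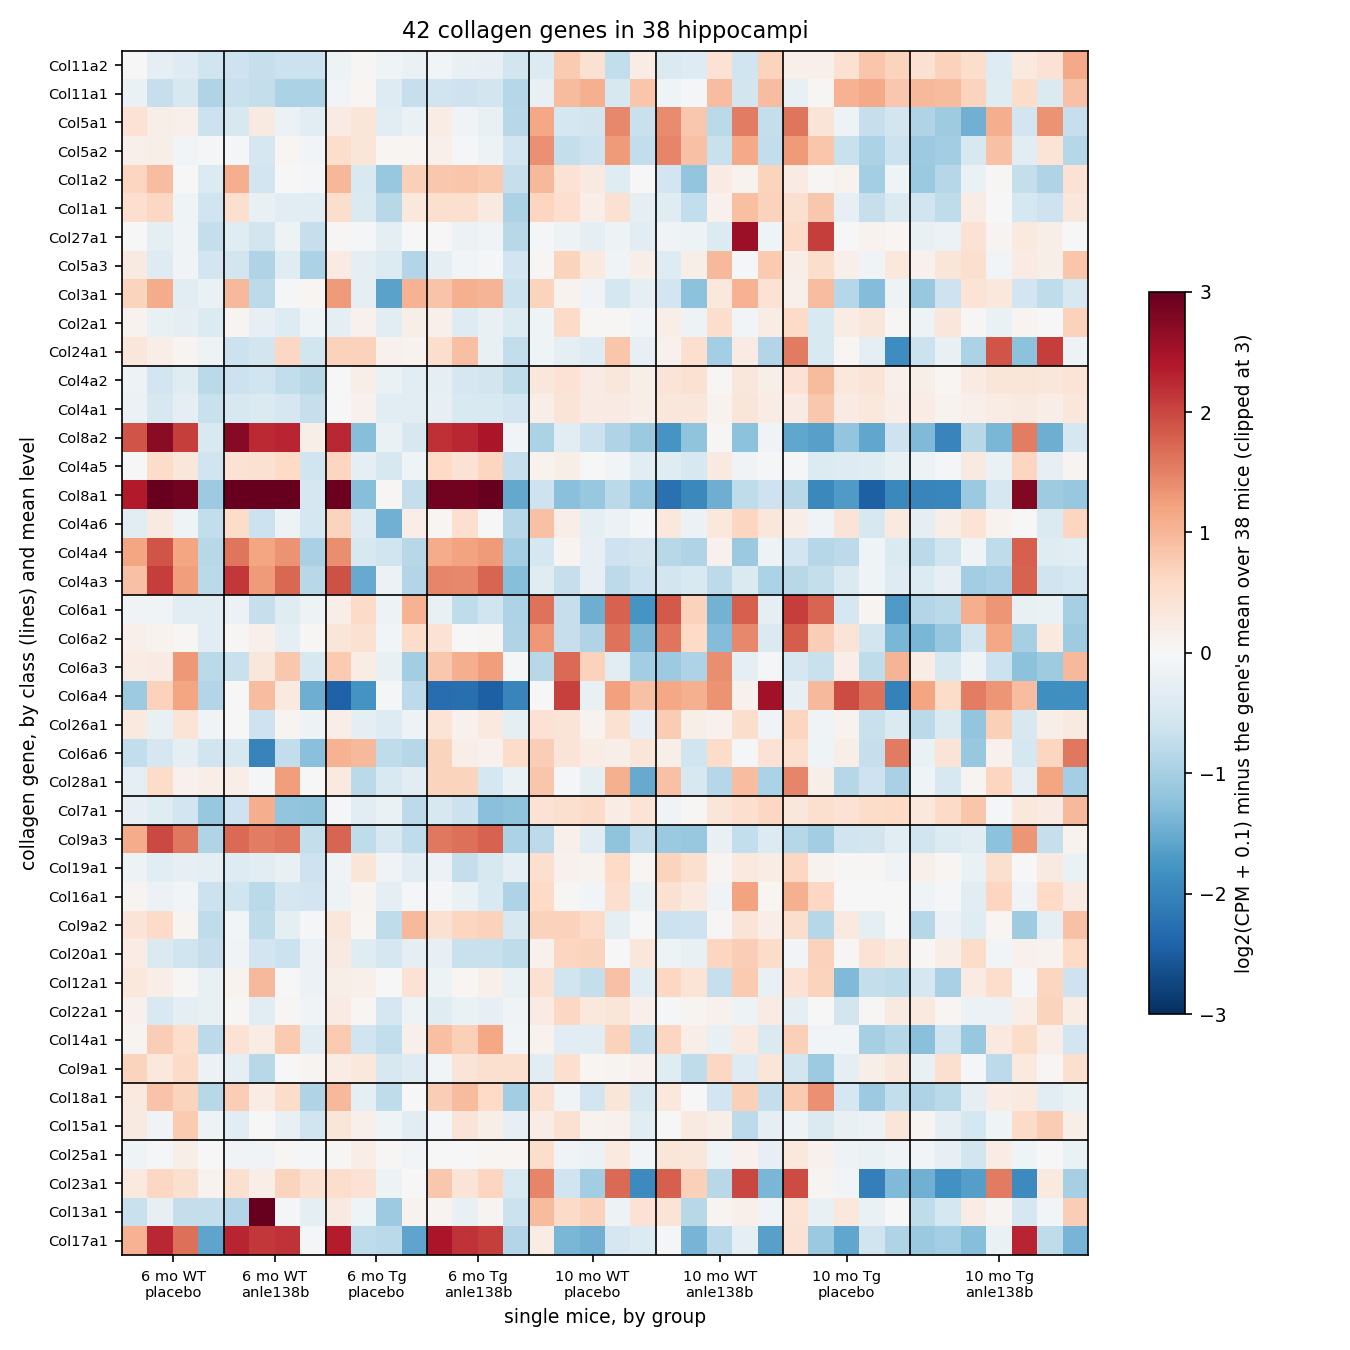
Each column is a mouse, sorted by group, and each row a collagen gene, sorted by class and level. Color shows log2(CPM + 0.1) minus the mean of the gene over 38 mice. Col8a1, Col8a2, Col4a3, Col4a4, Col9a3 and Col17a1 are red together in 10 mice of 6 months and 1 of 10 months, and Col5a1, Col5a2, Col6a1, Col6a2 and Col23a1 are red together in a set of mice of 10 months.

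The first pattern followed the choroid plexus. The mean log2 CPM of 16 choroid plexus markers was 5.17 to 6.13 in 11 mice and 0.0211 to 2.73 in the other 27, with nothing in between. Ttr, the transthyretin that choroid plexus epithelium secretes, was 3736 to 7468 CPM in these 11 mice and 13.1 to 643 CPM in the 27. High markers were found in 10 of 16 mice of the pre-plaque cohort and in 1 of 22 of the post-plaque cohort. Within the pre-plaque cohort they were found in 3 of 4 mice in every group but placebo-treated APPPS1ΔE9, which had 1 of 4.

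In 6 members the 11 mice did not overlap the 27, and in each the 11 were higher. Over all 18232 genes tested, 1.33% were higher without overlap and 0% lower. Col8a1, a chain of the network collagen type VIII that is known from endothelia and the eye, had 17.2, 25.5 and 41.8 CPM as the lowest, median and highest value in the 11 mice and 0.515, 1.41 and 3.34 CPM in the 27. Its partner chain Col8a2 had 15.1, 24.8 and 34.2 CPM against 1.22, 2.59 and 5.78 CPM. Both chains of type VIII collagen were thus low in every mouse of the larger set. Col9a3 had 42.8, 60.4 and 77.7 CPM as lowest, median and highest value in the 11 mice and 8.34 to 21.7 CPM, with a median of 12.002 CPM, in the 27. Col9a1 and Col9a2, the chains with which Col9a3 forms the trimer of cartilage, overlapped between the sets.

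Col4a3 and Col4a4 encode chains of the basement membrane collagen of the kidney filter. Col4a3 had 2.68, 4.92 and 6.49 CPM in the 11 mice against 0.428, 0.871 and 1.27 CPM, and Col4a4 had 5.10, 5.74 and 8.87 CPM against 1.01, 1.51 and 2.56 CPM. Their partner Col4a5 was higher in the same mice when the 6-month mice were taken alone, 8.25 to 12.9 CPM in 10 mice against 5.04 to 7.51 CPM in 6. So was Col18a1, the precursor of endostatin, with 7.82 to 13.2 CPM against 3.15 to 6.70 CPM. In 6-month mice 8 members did not overlap, where 3.47% of all genes were higher without overlap. Col17a1, a transmembrane collagen of epithelial attachment, had 1.08, 2.46 and 3.01 CPM in the 11 mice and 0.0850, 0.210 and 0.669 CPM in the 27.

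The genome sequence before the starts of these members is shown to place them. The bases were taken from the RefSeq promoter table of build GRCm38.p6, which holds 34 of the 43 collagen genes, and are limited to stretches that no annotated exon overlaps. Capitals mark any of the letters TATAAA (the TATA box), CCAAT (the CCAAT box), GGGCGG (the GC box) or TAATCC (the core bound by OTX factors) on either strand. Col4a3 and Col4a4 start head to head 71 bases apart on chromosome 1, and the stretch between them, chr1:82586850-82586920, is given on the minus strand, the strand of Col4a4. The stretch before Col8a1 is chr16:57754738-57754987 on the minus strand, and that before Col3a1, a member of the meningeal group described next, is chr1:45311288-45311537 on the plus strand.
Col4a4 and Col4a3: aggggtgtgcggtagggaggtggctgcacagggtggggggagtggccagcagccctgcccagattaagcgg
Col8a1: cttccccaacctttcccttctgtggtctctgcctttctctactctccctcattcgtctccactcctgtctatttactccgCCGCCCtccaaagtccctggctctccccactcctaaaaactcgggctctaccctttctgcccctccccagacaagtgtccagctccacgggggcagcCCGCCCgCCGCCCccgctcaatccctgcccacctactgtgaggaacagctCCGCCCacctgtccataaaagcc
Col3a1: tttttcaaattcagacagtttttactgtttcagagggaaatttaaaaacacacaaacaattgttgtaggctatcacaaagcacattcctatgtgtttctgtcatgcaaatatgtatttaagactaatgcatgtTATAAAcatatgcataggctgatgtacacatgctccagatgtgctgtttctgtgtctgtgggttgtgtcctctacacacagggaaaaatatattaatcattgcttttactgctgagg
The stretch before Col8a1 held 4 matches to GGGCGG, which 32.7% of 32851 promoters have in their last 250 bases before the start, and none of the other letters. The stretch before Col3a1 held 1 match to TATAAA, present in 12.4% of promoters, and the stretch between Col4a3 and Col4a4 held none of the 4, of which GGGCGG is found in 20.7% of promoters over the same length. No matches overlapped one another.

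**Figure D2:**
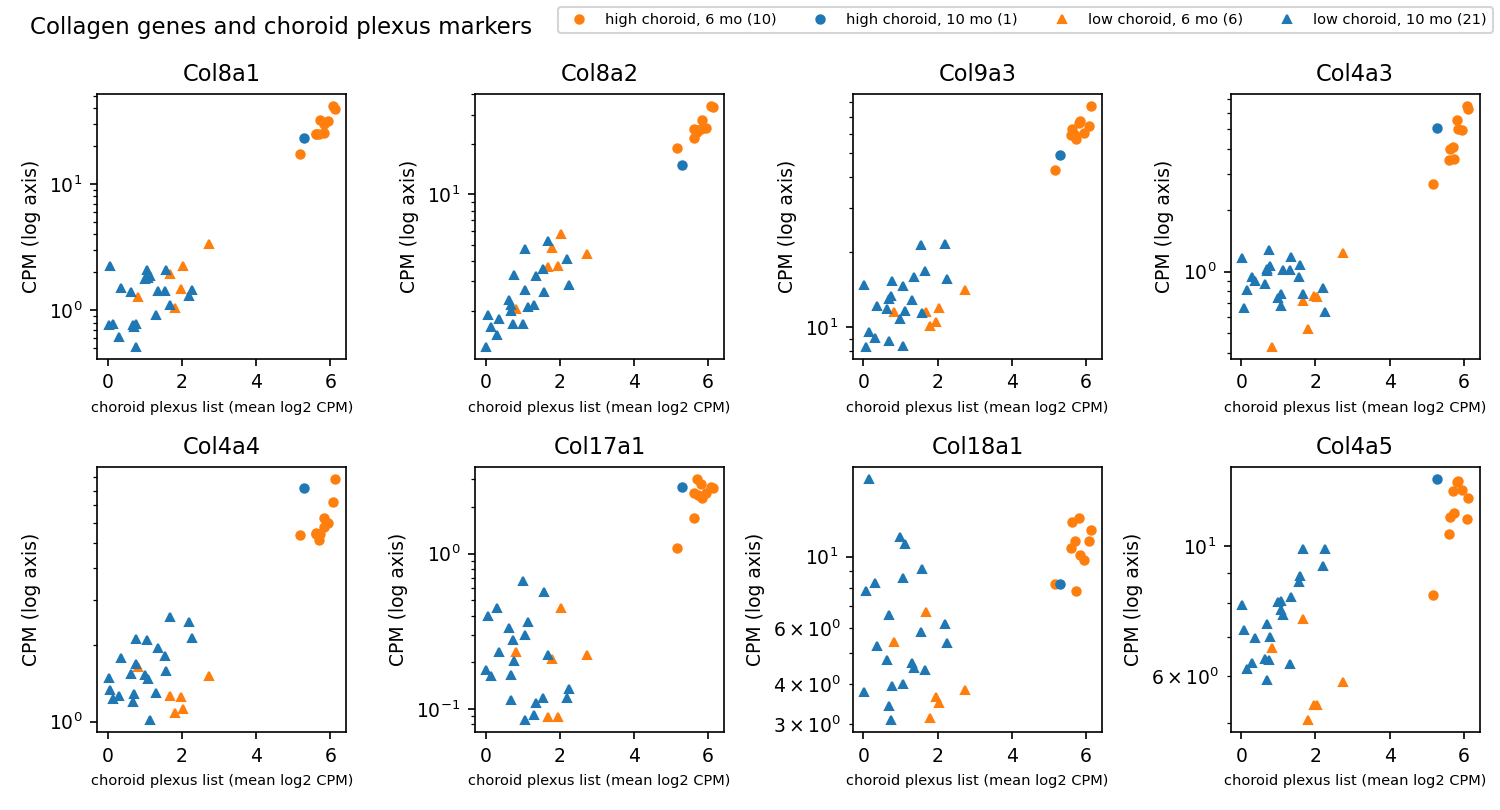
Each point is a mouse, with the mean log2 CPM of 16 choroid plexus markers on the horizontal axis and the CPM of a collagen gene on a log axis. Circles are the 11 mice with high markers and triangles the 27 others. In the first 6 panels no circle is as low as any triangle, while Col18a1 and Col4a5 separate only among the 6-month mice.

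Since choroid plexus markers fell into separate sets, no correlation was taken across them. Relations within the sets were taken for members only, so no share over all genes is given. Within the set of low markers, over 24 mice in groups with at least 2 such mice and with group means removed, Col8a2 still rose with the markers (Pearson r = 0.726, permutation p = 0.00014, adjusted p = 0.0118 over 84 relations, Spearman rho = 0.697, permutation p = 0.00047). Without the 2 mice farthest from the median r was 0.737. Col9a3 (r = 0.640, permutation p = 0.00161, adjusted p = 0.0676, rho = 0.622, permutation p = 0.00217, r = 0.700 without 2 mice) and Col4a5 (r = 0.598, permutation p = 0.00433, adjusted p = 0.0972, rho = 0.555, permutation p = 0.0113, r = 0.740 without 2 mice) also passed. Within the set of high markers, 9 mice in 3 groups, Col4a3 followed the markers (r = 0.953, exact permutation p = 0.00463, the smallest that these mice allow, adjusted p = 0.0972, rho = 0.983, exact permutation p = 0.00463, r = 0.967 without 2 mice). Of 22 relations of fibrillar members in both sets 0 passed and 1 had an unadjusted permutation p under 0.05, Col5a1 in the set of high markers (r = -0.570, exact permutation p = 0.0417), and in the set of low markers their r ran from -0.396 to 0.422.

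The 2 chains of type I collagen and the chain of type III collagen followed the meningeal markers, and the other 8 of 11 fibrillar members were not called. Meningeal content was read from the mean log2 CPM of 15 markers, and whether these also mark fibroblasts elsewhere was not tested. The score ran from 1.62 to 3.84 over the 38 mice without separate sets. Each relation below was taken over single mice with group means removed. Of 42 members, 6 were related to the markers, all 6 positively, at an adjusted p under 0.1 over 168 relations with 4 lists. The median r was 0.20 over the members, 0.14 over the 11 fibrillar members and 0.00 over all 18217 genes outside the list, and r exceeded 0.5 in 11.9% of members and 1.93% of genes. Counts per gene and their markers come from the same libraries, so these points share depth and normalization.

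Col1a2, the second chain of type I collagen, was closest to the meningeal markers (r = 0.894, permutation p = 1e-05, the smallest that 100000 permutations can give, adjusted p = 0.00084, rho = 0.895, permutation p = 1e-05). It was 5.69 to 27.3 CPM at 6 months and 5.51 to 24.9 CPM at 10 months. Its r was 0.957 within the 6-month mice, 0.844 within the 10-month mice and 0.887 without the 2 mice farthest from the median of the markers. Col3a1, the single chain of type III collagen, followed (r = 0.736, permutation p = 3e-05, adjusted p = 0.00126, rho = 0.696, permutation p = 8e-05), with r of 0.975 and 0.522 in the 2 cohorts and 0.671 without 2 mice. Col1a1, the first chain of type I collagen, had r = 0.656 (permutation p = 0.00016, adjusted p = 0.00538, rho = 0.623, permutation p = 0.00048), with r of 0.864 and 0.501 in the cohorts and 0.628 without 2 mice. Within the 10-month mice alone only Col1a2 of these 3 passed the adjusted threshold. Without the 3 libraries that stood apart, r was 0.920 for Col1a2, 0.844 for Col3a1 and 0.780 for Col1a1.

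These 3 genes also rose and fell together. Col1a1 and Col1a2 had r = 0.853 with each other over 38 mice, group means removed, and Col1a1 and Col3a1 had r = 0.863, which are descriptions of the same libraries. Per length, the level of Col1a1 was 0.647 to 1.74 times that of Col1a2 with a median of 0.914, while the type I trimer holds more of the first chain than of the second. This ratio depends on the exon lengths used, 6563 bases for Col1a1 and 12426 for Col1a2. Without length, mean CPM over the 38 mice was 6.96 for Col1a1 and 14.1 for Col1a2. The 5 genes most like Col1a1 were Col3a1 (r = 0.863), Col1a2 (0.853), Ecm1 (0.814), Eya2 (0.801) and Emilin1 (0.800), of which Ecm1 and Emilin1 encode matrix proteins.

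The other 8 fibrillar members were not related to the meningeal markers at the adjusted threshold. Their r was 0.268 for Col2a1, 0.240 for Col5a3, 0.140 for Col24a1, 0.108 for Col5a1, 0.105 for Col5a2, 0.083 for Col27a1, 0.050 for Col11a2 and -0.043 for Col11a1, with adjusted permutation p between 0.406 and 0.889 over 38 mice. At 6 months r was 0.603 for Col5a2 and 0.544 for Col27a1 (unadjusted permutation p 0.0382 and 0.0281), beside 0.039 and -0.024 at 10 months. In the rest it was 0.008 to 0.312 at 6 and -0.061 to 0.252 at 10 months. Col5a1, Col5a2 and Col11a1 formed separate sets at 10 months, described below, which r over 38 mice ignores. The other 3 related members were of other classes. Col9a2, a FACIT chain, had r = 0.831 (permutation p = 1e-05, adjusted p = 0.00084, rho = 0.836, permutation p = 1e-05, 0.822 without 2 mice). Col4a6, a basement membrane chain, had r = 0.791 (permutation p = 2e-05, adjusted p = 0.00112, rho = 0.772, permutation p = 2e-05, 0.803 without 2 mice), and Col26a1 had r = 0.481 (permutation p = 0.00513, adjusted p = 0.0654, rho = 0.449, permutation p = 0.0108, 0.387 without 2 mice). All 6 related members had positive r in each cohort. At 6 and 10 months r was 0.870 and 0.803 for Col9a2, 0.891 and 0.719 for Col4a6, and 0.560 and 0.474 for Col26a1.

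**Figure D3:**
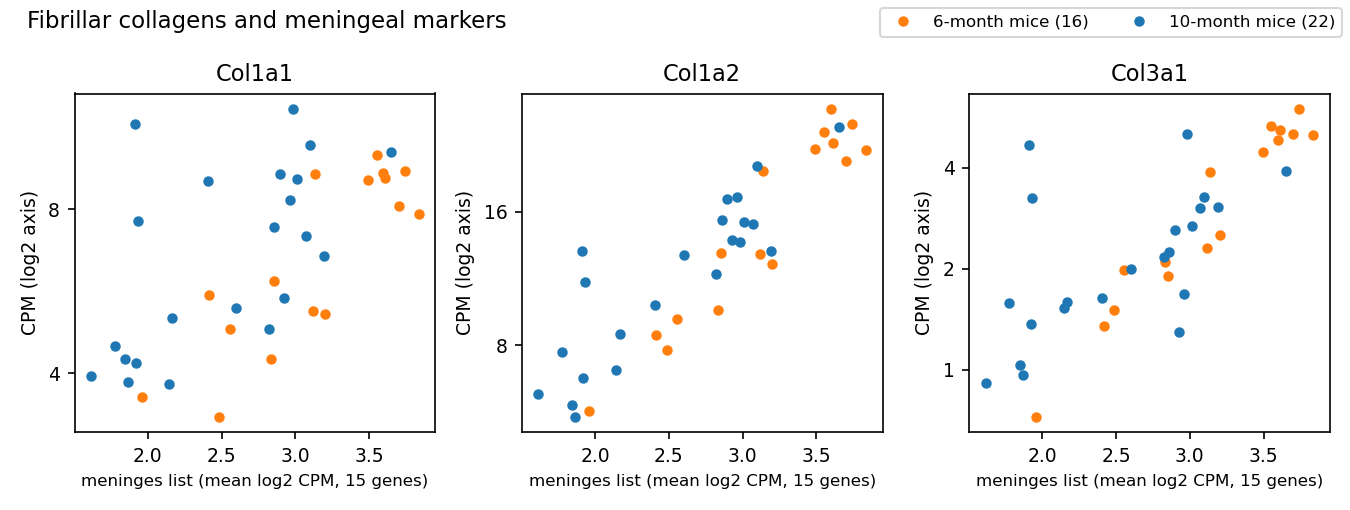
Each point is a mouse, with the mean log2 CPM of 15 meningeal markers on the horizontal axis and the CPM of Col1a1, Col1a2 or Col3a1 on a log2 axis, without removal of group means. Orange points are 6-month and blue points 10-month mice. Col1a2 rises with the markers in both cohorts, and Col1a1 and Col3a1 scatter more among the 10-month mice.

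Meningeal markers went with choroid plexus markers only in part. The 1 mouse of 10 months with high choroid plexus markers had a meningeal score of 1.78, near the lowest of its cohort (1.62). Placebo-treated APPPS1ΔE9 mouse 4 of 6 months had a choroid plexus score of 1.68 and a meningeal score of 3.70. In 6-month mice the meningeal score was 2.42 to 3.84, median 3.52, in the 10 mice with high choroid plexus markers and 1.96 to 3.70, median 2.70, in the 6 others. Col1a2 had a median of 22.1 CPM in the 10 mice and 9.40 CPM in the 6, Col1a1 9.11 and 4.54 CPM, and Col3a1 4.64 and 2.04 CPM, but the ranges overlapped in all 3. The r of the 6-month mice with the meningeal markers were taken over both sets together, and the part of choroid plexus content in them was not tested.

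The vessel lists gave fewer relations. Markers of endothelium were related to 4 members, Col6a6 (r = 0.605, permutation p = 0.00038, adjusted p = 0.0106, rho = 0.640, permutation p = 0.0001, r = 0.590 without 2 mice), Col26a1, Col5a3 and Col9a2, with r of 0.420 to 0.487 and adjusted permutation p of 0.0654 to 0.0756 for the latter 3. Markers of mural cells were related to Col9a2, Col16a1 and Col26a1, with r of 0.476 to 0.479 and adjusted permutation p of 0.0575 to 0.0756. With endothelium r exceeded 0.5 in 2.38% of members and 0.697% of genes, and with mural cells in 0% and 0.587%. With the median over a list in place of its mean, or within either cohort alone, none of these vessel relations passed. Col4a1 and Col4a2, which are known as the collagen of vessel walls, had r of 0.054 and -0.022 with endothelium and 0.030 and 0.021 with mural cells (adjusted permutation p 0.886, 0.924, 0.923 and 0.932, n = 38). The endothelial score ran only from 3.81 to 4.32 and the mural score from 3.23 to 3.95, beside 1.62 to 3.84 for meninges. Over so narrow a range r can show little, and whether these chains come from vessel cells was not tested.

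The type IV chains Col4a1 and Col4a2 followed each other, with r = 0.935 over 38 mice, 0.961 at 6 months and 0.915 at 10 months, group means removed. Per length Col4a1 was 0.638 to 0.853 times the level of Col4a2, the narrowest range of the chain pairs compared. The genes lie head to head on chromosome 8 (GRCm38), Col4a1 at 11198423 to 11312826 on the minus strand and Col4a2 at 11312805 to 11449287 on the plus strand, and their annotated starts overlap by 22 bases. The genes most like Col4a1 were Col4a2, Furin (r = 0.760), Dnhd1 (0.739), Srrm3 (0.738) and Dtx2 (0.732). Furin encodes a proprotein convertase.

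A second pattern divided the 10-month mice. The mean log2 CPM of 10 hippocampal neuron markers was 5.25 to 5.74 in 9 of them and 6.15 to 6.60 in the other 13, while the 16 mice of 6 months lay between, at 5.92 to 6.16. Prox1 and Dsp, markers of dentate granule cells, were 47.3 to 101.7 and 4.01 to 43.5 CPM in the 9 mice and 125.2 to 204.1 and 73.3 to 161.0 CPM in the 13. Fibcd1, a marker of CA1, was 141.7 to 256.9 CPM in the 9 and 108.7 to 194.4 CPM in the 13, while Wfs1, another marker of CA1, was 51.6 to 128.6 CPM in the 9 and 87.5 to 203.1 CPM in the 13. The 9 mice came from all 4 groups of the cohort, on placebo 2 of 5 WT and 2 of 5 APPPS1ΔE9 mice and on anle138b 3 of 5 WT and 2 of 7 APPPS1ΔE9 mice, and from all 4 lanes.

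In 6 members the values were higher in the 9 mice without overlap and in 1 lower, against 4.77% and 4.88% of 18232 genes. Col23a1, a transmembrane collagen, was 15.3, 43.0 and 58.2 CPM as lowest, median and highest value in the 9 mice and 3.45, 5.53 and 13.8 CPM in the 13. Col5a1 and Col5a2, the chains of type V collagen that start fibril assembly, were 20.3, 40.1 and 47.6 CPM against 5.64, 9.67 and 14.0 CPM, and 21.6, 35.98 and 45.1 CPM against 7.56, 9.94 and 13.03 CPM. The remaining 3 were Col12a1 (18.97 to 26.3 against 5.60 to 17.02 CPM), Col16a1 (21.1 to 39.95 against 13.7 to 20.4 CPM) and Col25a1 (111.4 to 160.3 against 75.7 to 104.7 CPM). Col11a1 went the other way, with 19.4, 24.7 and 29.6 CPM in the 9 mice and 41.8, 54.8 and 62.8 CPM in the 13. In 6-month mice Col11a1 was 14.9 to 30.01 CPM with a median of 18.4 CPM, which overlapped the 9 but not the 13.

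Type VI collagen took part in this division. Col6a1 was 56.4, 217.4 and 273.4 CPM in the 9 mice and 19.1, 37.3 and 139.8 CPM in the 13, and Col6a2 was 17.8, 36.2 and 51.8 CPM against 5.55, 7.28 and 19.1 CPM, so that both sets overlapped at their edges. Col6a3, which the textbook trimer needs beside these 2 chains, did not follow them and had medians of 5.31 and 9.86 CPM. Per length Col6a1 was 2.94 to 159 times the level of Col6a3 over the 38 mice. Dcn (decorin), a fibroblast proteoglycan among the meningeal markers, was 36.5 to 173.5 CPM in the 9 and 4.32 to 116.4 CPM in the 13, and without Dcn 5 members remained past the threshold for the meningeal list. Prkcd, a thalamic marker, was 10.7 to 15.4 CPM in the 9 and 34.8 to 95.0 CPM in the 13. The lists that hold these 2 genes did not separate the sets. The thalamic score was 2.38 to 2.98 in the 9 and 2.36 to 3.29 in the 13, and the meningeal score 1.87 to 3.65 and 1.62 to 3.10. What part the dissected level of the hippocampus had in these values was not tested.

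**Figure D4:**
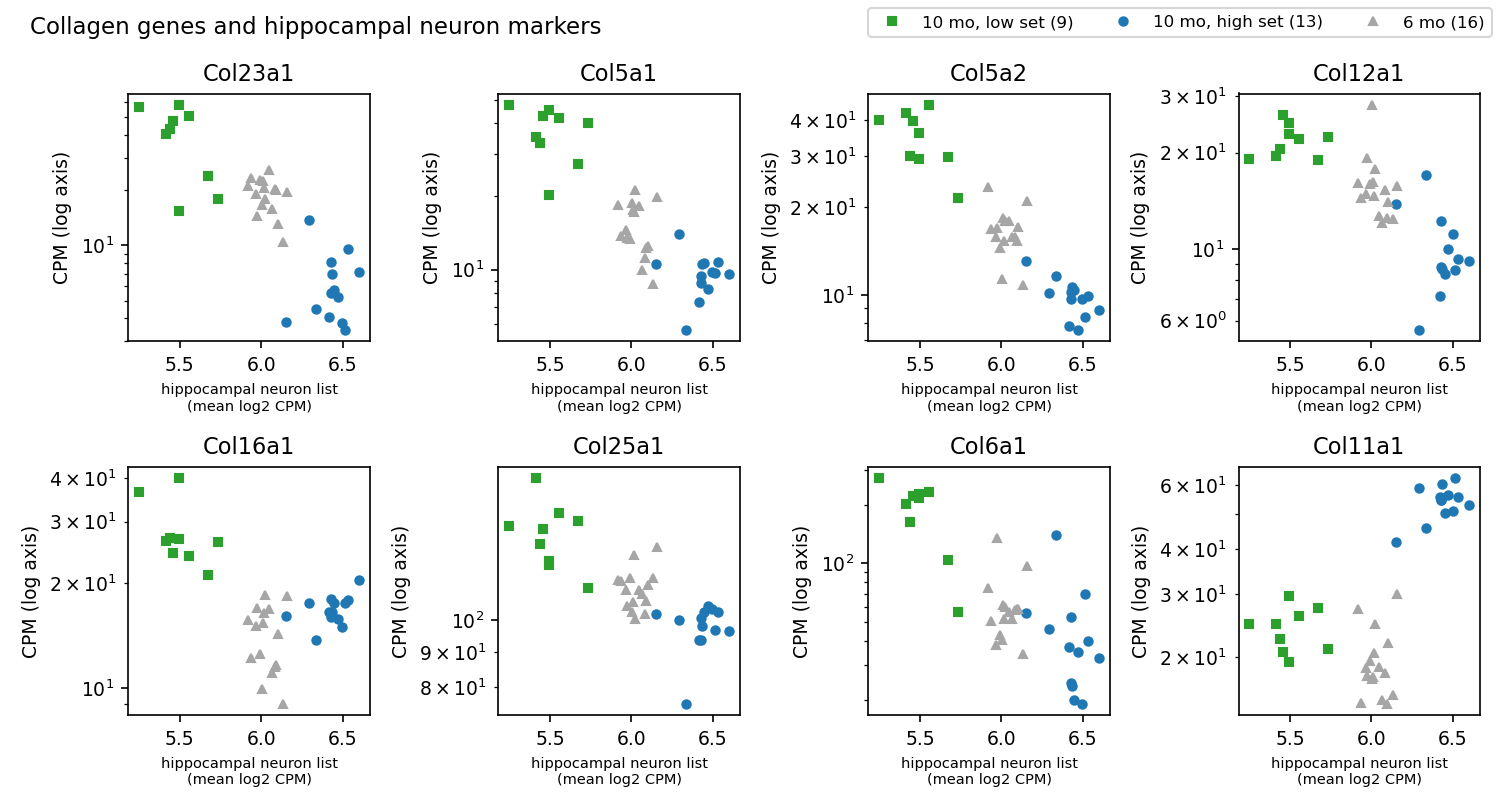
Each point is a mouse, with the mean log2 CPM of 10 hippocampal neuron markers on the horizontal axis and the CPM of a collagen gene on a log axis. Green squares are the 9 and blue circles the 13 mice of 10 months, and gray triangles the 16 mice of 6 months. Col11a1 is higher, and the other 7 genes lower, in most blue circles than in the green squares.

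The genes ranked most like Col6a1 over 38 mice by Pearson r, group means removed, were Gm28578, Ptpre, Col6a2, Rgs4 and 6530403H02Rik. No r is given for them, because the 10-month mice fell into separate sets. The thalamic list was related to 9 members at the adjusted threshold, Col4a3, Col4a4, Col5a2, Col6a1, Col6a3, Col8a2, Col9a3, Col11a1 and Col11a2. Most of them are the members that separated by choroid plexus or by hippocampal neuron markers, and without the 2 mice farthest from the median 1 member passed the threshold. With the thalamic list r exceeded 0.5 in 7.14% of members and 1.54% of genes.

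Genotype and anle138b were compared within each cohort. No collagen gene passed an adjusted p of 0.1 in edgeR's quasi-likelihood test in any of the 14 comparisons. For anle138b against placebo at 6 months, 0 of 42 members were called in WT, where 0% of all genes were called, and 0 of 41 in APPPS1ΔE9 mice, where 0.0529% were called. At 10 months the same comparisons gave 0 of 40 in WT and 0 of 41 in APPPS1ΔE9 mice, with 0% of all genes called in each. For APPPS1ΔE9 against WT at 6 months, 0 of 42 were called under placebo (0.0715% of all genes) and 0 of 42 under anle138b (0.047%). At 10 months 0 of 40 were called under placebo (0.324%) and 0 of 41 under anle138b (0.723%). With both chows averaged, genotype called 0 of 42 members at 6 months (0.218% of all genes) and 0 of 41 at 10 months (1.43%). With both genotypes averaged, chow called 0 of 42 (0.0172%) and 0 of 41 (0%), and the interaction of genotype and chow called 0 of 42 and 0 of 41, with 0% of all genes in both cohorts.

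At an unadjusted p under 0.05, members numbered 5 and 9 for chow at 6 months in WT and APPPS1ΔE9 mice, beside 1.85% and 13.1% of all genes, and 2 and 2 at 10 months, beside 1.25% and 1.48%. For genotype under placebo and anle138b they numbered 5 and 7 at 6 months, beside 11.1% and 5.64% of all genes, and 5 and 0 at 10 months, beside 4.1% and 5.78%. For the averaged genotype, averaged chow and interaction they numbered 6, 8 and 3 at 6 months, beside 10.7%, 7.08% and 7.99%, and 0, 0 and 4 at 10 months, beside 6.84%, 0.917% and 2.3%. DESeq2 called 2 members for chow in APPPS1ΔE9 mice at 6 months (1.42% of all genes with an adjusted p), 3 for genotype under anle138b (0.289%) and 2 for the averaged genotype at 6 months (1.17%), and 0 in the other 11 comparisons. In these it called 2.18% of all genes for genotype under placebo at 6 months, 0.637% under placebo and 1.1% under anle138b at 10 months, 1.73% for the averaged genotype at 10 months, and at most 0.277% in the other 7.

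The members that DESeq2 called were Col6a1, Col4a2, Col6a4, Col6a6 and Col11a2. Col6a1 at 6 months was 74.6, 97.2, 58.7 and 134 CPM in placebo-treated and 56.1, 38.1, 43.2 and 34.2 CPM in anle138b-treated APPPS1ΔE9 mice. It was the 1 of 41 members without overlap in this comparison. Overlap was not counted over all genes, so whether this is more than in other genes is not known. Its log2 fold change of -1.10 ± 0.29 (SE) had an adjusted p of 0.310 in edgeR and 0.0559 in DESeq2. In WT mice of 6 months it was 60.1, 60.98, 51.9 and 51.85 CPM under placebo and 57.5, 40.4, 50.7 and 58.7 CPM under anle138b. The values of the 2 WT groups overlapped. Col4a2 was 90.1, 101.2, 77.98 and 71.5 CPM in placebo-treated and 73.9, 63.5, 61.6 and 52.8 CPM in anle138b-treated APPPS1ΔE9 mice, with a log2 fold change of -0.45 ± 0.12 and an adjusted p of 0.305 in edgeR and 0.0361 in DESeq2. All 9 members at an unadjusted p under 0.05 in this comparison were lower with anle138b, 21.95% of the 41 tested, beside 13.1% of all genes. Among the APPPS1ΔE9 mice of 6 months, high choroid plexus markers were found in 1 of the 4 placebo-treated and 3 of the 4 anle138b-treated mice. Each of these APPPS1ΔE9 groups was sequenced in its own lane, so that lane and chow cannot be told apart between them.

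Col6a4 and Col6a6, 2 further chains of the type VI family, lie near each other on chromosome 9, Col6a4 at 105989454 to 106096783 and Col6a6 at 105687809 to 105828160, both on the minus strand. Among anle138b-treated mice of 6 months, Col6a4 was 0.838, 0.847, 0.736 and 1.05 CPM in APPPS1ΔE9 and 4.45, 8.61, 5.51 and 1.54 CPM in WT mice. Col6a6 in the same mice was 1.98, 1.41, 1.32 and 1.82 CPM in APPPS1ΔE9 and 0.832, 0.225, 0.688 and 0.450 CPM in WT. Neither gene overlapped between the genotypes, and they differed in opposite directions. In this comparison 3 of 42 members did not overlap. Overlap was not counted over all genes, so whether this is more than in other genes is not known. The log2 fold change was -2.52 ± 0.48 for Col6a4 and 1.54 ± 0.31 for Col6a6, with adjusted p of 0.434 and 0.412 in edgeR and 9.36e-06 and 0.0381 in DESeq2. At 10 months Col6a4 was 1.17 to 13.1 CPM in anle138b-treated APPPS1ΔE9 and 4.90 to 26.2 CPM in anle138b-treated WT mice, and the genotypes overlapped. Over 38 mice, group means removed, Col6a4 and Col6a6 had r = -0.587, with -0.400 at 6 months and -0.681 at 10 months. Col11a2 was 30.3, 27.2, 26.9 and 21.7 CPM in APPPS1ΔE9 and 20.8, 19.8, 20.5 and 20.5 CPM in WT mice of 6 months under anle138b, with a log2 fold change of 0.38 ± 0.09 and an adjusted p of 0.476 in edgeR and 0.0728 in DESeq2. At 6 months all 5 mice with high Xist were WT, and the part of sex in these differences was tested only by adding the summed Y-linked level to the model. With it edgeR called Col6a4 with a log2 fold change of -2.95 and an adjusted p of 0.0490.

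The fibrillar chains that followed the meningeal markers were not called by genotype or chow within either cohort. Placebo-treated mice of 10 months had 8.25 ± 1.95 CPM of Col1a1 in WT and 6.97 ± 3.19 CPM in APPPS1ΔE9 (SD, n = 5 each). Col1a2 was 9.85 to 24.9 CPM in the same WT and 6.22 to 15.2 CPM in the same APPPS1ΔE9 mice, and the genotypes overlapped. Col25a1 had 120.1 ± 26.98 and 111.3 ± 16.9 CPM in the same groups, and 119.7 ± 22.2 CPM in anle138b-treated WT (n = 5) and 101.8 ± 16.4 CPM in anle138b-treated APPPS1ΔE9 mice (n = 7). At 6 months it was 101 to 127 CPM in all 16 mice. Col25a1 was called with the Y-linked level in the model for genotype under anle138b at 10 months (log2 fold change -0.41, edgeR adjusted p 0.0554). The mice low in hippocampal neuron markers, in which Col25a1 was high, were 2 of 7 APPPS1ΔE9 and 3 of 5 WT mice in this comparison, and their part in it was not tested.

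The 10-month mice were compared with the 6-month mice, with genotypes and chows averaged. Age, cohort and any difference in sequencing run cannot be told apart in this comparison. Of 42 members, 25 passed an adjusted p of 0.1 in edgeR's test, 15 higher and 10 lower at 10 months, but 61.8% of 18232 genes were called as well, so the share of members, 59.5% at an unadjusted p under 0.05 against 60% of genes, was that of any gene. DESeq2 also called 25 members, beside 61.7% of all genes. The median log2 fold change was 0.04 over the members and -0.02 over all genes. No member separated the cohorts without overlap, and overlap was not counted over all genes here.

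The basement membrane chains Col4a1 and Col4a2 were higher at 10 months. Col4a1 was 88.9 ± 9.86 CPM in 22 mice of 10 months and 57.1 ± 9.17 CPM in 16 mice of 6 months (SD), a log2 fold change of 0.64 ± 0.05 (SE, edgeR adjusted p = 2.15e-12). Col4a2 was 113 ± 16.1 and 67.1 ± 14.7 CPM, with 0.77 ± 0.06 (edgeR adjusted p = 6.22e-12). The summed level of 10 endothelial markers was 197 to 256 CPM at 10 months and 176 to 237 CPM at 6 months, and that of 10 mural markers 185 to 299 and 181 to 286 CPM. Without the 3 libraries that stood apart the log2 fold changes were 0.61 and 0.74. Both chains were also higher without the 11 mice of high choroid plexus markers, by 0.78 ± 0.09 and 0.94 ± 0.11.

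Among fibrillar members, Col11a1 (log2 fold change 1.09 ± 0.17), Col27a1 (0.65 ± 0.22), Col5a3 (0.63 ± 0.12), Col11a2 (0.62 ± 0.13) and Col2a1 (0.30 ± 0.10) were higher at 10 months, with edgeR adjusted p of 2.09e-06 to 0.012. Col27a1 was 9.11 ± 1.67 CPM at 6 months and 14.8 ± 13.4 CPM at 10 months, where placebo-treated APPPS1ΔE9 mouse 2 had 45.4 and anle138b-treated WT mouse 4 had 64.2 CPM, beside 8.11 to 16.2 CPM in the other 20 mice, and without the 3 libraries that stood apart its log2 fold change was 0.21. Col3a1 (-0.52 ± 0.25) and Col1a2 (-0.42 ± 0.20) were lower, with edgeR adjusted p of 0.0708 and 0.0824. Both turned to positive values, 0.15 and 0.22, with the meningeal score as a covariate, and to 0.12 and 0.26 without the mice of high choroid plexus markers, and neither then passed. Col1a1 (0.03 ± 0.18), Col5a1 (0.47 ± 0.28), Col5a2 (0.28 ± 0.25) and Col24a1 (0.05 ± 0.32) did not pass.

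Of the other classes, Col6a4 (1.79 ± 0.37), Col7a1 (0.91 ± 0.15), Col6a1 (0.84 ± 0.35), Col20a1 (0.69 ± 0.11), Col16a1 (0.61 ± 0.12), Col6a6 (0.57 ± 0.23), Col19a1 (0.48 ± 0.08) and Col22a1 (0.25 ± 0.08) were higher at 10 months, with edgeR adjusted p of 2.09e-06 to 0.0396. Col19a1 is a FACIT collagen made by interneurons. The median of Col6a1 was 56.02 CPM at 10 months and 56.8 CPM at 6 months, and at 10 months it was 217 CPM in the 9 mice low in hippocampal neuron markers and 37.3 CPM in the 13 others. Its call was lost without the mice of high choroid plexus markers (edgeR adjusted p = 0.359) and with the choroid plexus score as a covariate (edgeR adjusted p = 0.390). Lower were Col8a1 (-3.34 ± 0.50), Col8a2 (-2.50 ± 0.34), Col17a1 (-2.18 ± 0.45), Col9a3 (-1.56 ± 0.28), Col4a3 (-1.54 ± 0.32), Col4a4 (-1.17 ± 0.28), Col14a1 (-0.43 ± 0.20) and Col4a5 (-0.29 ± 0.12), with edgeR adjusted p of 2.5e-07 to 0.0628. The first 6 of these are the genes that separated by choroid plexus markers, which were high in 10 of 16 mice of 6 months.

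Left without those 11 mice, 6 of 6 months against 21 of 10 months, 18 members were called, 17 higher and 1 lower, beside 39.5% of all genes, and 14 of the 18 were among the 25. With the choroid plexus score as a covariate 17 were called, all higher, beside 43.4% of genes, and 16 of the 17 were among the 25. Without the 11 mice the log2 fold change was -0.40 ± 0.28 for Col8a1, -0.78 ± 0.25 for Col8a2, 0.29 ± 0.45 for Col17a1, 0.20 ± 0.20 for Col9a3, 0.39 ± 0.20 for Col4a3 and 0.41 ± 0.19 for Col4a4. Of these 6 only Col8a2 still passed, at an edgeR adjusted p of 0.0180. With the covariate Col8a2 did not pass (-0.23, edgeR adjusted p = 0.223), while Col9a3 (0.41, edgeR adjusted p = 0.0369), Col4a3 (0.66, edgeR adjusted p = 0.0201) and Col4a4 (0.66, edgeR adjusted p = 0.0013) were called higher at 10 months. Col4a5 turned from lower to higher and passed in both directions, with 0.41 ± 0.11 and an edgeR adjusted p of 0.00471 without the 11 mice. Col4a6, Col13a1, Col18a1 and Col1a1 were called only without them, all higher, by 0.82, 0.66, 0.76 and 0.64.

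**Figure D5:**
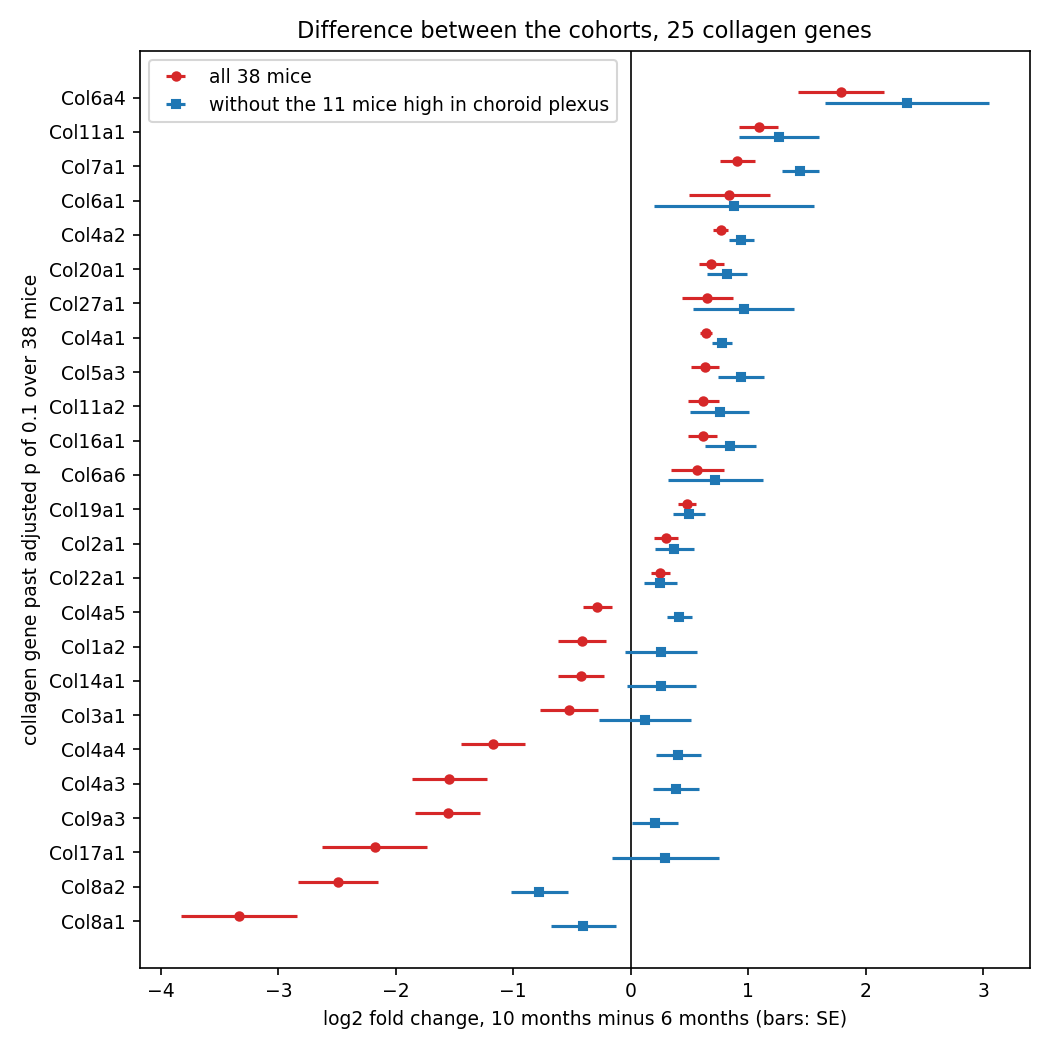
Log2 fold change of 10-month against 6-month mice for the 25 collagen genes called, with all 38 mice (red circles) and without the 11 mice of high choroid plexus markers (blue squares). Bars are SE. The 15 genes that were higher stay higher, while 8 of the 10 that were lower cross to positive values.

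Genes that modify, process, bind or break down collagen were also compared between the cohorts. Of 18 genes of chain modification and secretion, 6 were higher and 6 lower at 10 months, of 14 genes of processing and cross-linking 4 and 6, of 9 receptors 3 and 3, and of 10 genes of breakdown 0 and 6, with median log2 fold changes of 0.03, -0.28, 0.06 and -0.31. Of all genes 29.7% were higher and 32.1% lower in this comparison. The smallest p were those of P3h3, a prolyl hydroxylase (0.53 ± 0.04, edgeR adjusted p = 2.54e-12), Bmp1, which removes the propeptides of fibrillar procollagens (0.96 ± 0.12, edgeR adjusted p = 2.71e-08), and Mmp15, a membrane metalloprotease (-0.69 ± 0.10, edgeR adjusted p = 8.22e-07). Within the cohorts a single gene of these lists was called. Lair1, an inhibitory collagen receptor of immune cells, was higher in APPPS1ΔE9 than in WT mice at 10 months with both chows averaged (0.48 ± 0.09, edgeR adjusted p = 0.00405) and under anle138b alone (0.60 ± 0.13, edgeR adjusted p = 0.0799).

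The remaining members, Col6a2, Col6a3, Col9a1, Col9a2, Col12a1, Col13a1, Col15a1, Col18a1, Col23a1, Col25a1, Col26a1, Col28a1 and Col4a6, were not called between the cohorts, with log2 fold changes of -0.31 to 0.32. Col13a1, a transmembrane collagen of the neuromuscular junction, was 16.04 CPM in anle138b-treated WT mouse 2 at 6 months, which stood apart, and 0.669 to 3.03 CPM in the other 37 mice.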

How the data were processed

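Hippocampal mRNA of 38 mice was sequenced from TruSeq libraries. The deposited values are raw counts per gene, which the authors made by aligning reads to mm10 with STAR and counting with HTSeq. The HTSeq version, annotation release and strandedness are not given in the sources used here, so reads of overlapping genes cannot be assigned with certainty. Genes were named and located with GENCODE M21 (GRCm38), in which 48349 of 48709 identifiers were found. Libraries were grouped by title.

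Counts were tested with edgeR 4.0.16 in R 4.3.3, with filterByExpr (minimum count 10, total 15), TMM factors and the robust quasi-likelihood test, at a Benjamini-Hochberg adjusted p under 0.1 over all genes. The SE is the log2 fold change divided by the root of F. CPM refer to total counts, and scores are the mean log2 CPM of a marker list (prior count 2). Relations to scores used two-sided tests with 100000 permutations of mice within groups (20000 when single mice were left out). Relations to the choroid plexus list were planned over all mice and were taken within each set instead, since the mice fell into separate sets. Genes most like a member were ranked by Pearson r, group means removed. P-values measure the spread between these mice.

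The collagen genes, the marker lists and the pathway lists were chosen with earlier results of these data known. Named genes are the fibrillar members, the highest members of each class, members called in a comparison, and 3 pathway genes of smallest p. Members that separated by choroid plexus or hippocampal neuron markers, Col6a4, Col6a6, Col11a2, Col13a1 and Lair1 were named after their values were seen. The alternatives were DESeq2 1.42.0, other size factors, no filter, a stricter threshold, covariates for Y-linked expression, meninges and choroid plexus, lane, a replicate block and single mice left out. The choroid plexus covariate, the comparison without the mice high in it, the list without Dcn and the omission of 3 libraries were added after seeing the data. The scripts were tested on simulated counts. No 2 libraries were duplicates, since chi-square per degree of freedom was 3.17 to 65.3 in 75 pairs within groups. Running numbers did not pair the mice.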

Additional observations from a re-analysis of the deposited data

Results flagged for a closer look

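In groups of 4 to 7 mice, the highest or lowest CPM of a member was marked when its gap to the nearest mouse exceeded Dixon's 95% critical value for the range. This marked 34 of 280 group values of the 35 named members, 29 at the highest and 5 at the lowest mouse. For a single gene chosen beforehand chance marks about 1 in 20. Some of these members were named after their values were seen, and several vary together, so the 34 cannot be set against that rate. No cause was tested.

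Of the 34 values, 17 were those of 4 mice that no other mouse of their group matched in having high or low choroid plexus markers. Anle138b-treated APPPS1ΔE9 mouse 5 of 10 months, the only mouse of its cohort with high markers, was marked at 49.3 CPM for Col9a3, 22.9 for Col8a1, 15.1 for Col8a2, 8.21 for Col4a4, 5.02 for Col4a3 and 2.67 for Col17a1. Placebo-treated APPPS1ΔE9 mouse 1 of 6 months, the only mouse of its group with high markers, was marked in the same 6 genes, at 66.3 CPM for Col9a3, 25.5 for Col8a1, 24.9 for Col8a2, 6.27 for Col4a4, 5.52 for Col4a3 and 2.80 for Col17a1. Low values were marked at 6 months in anle138b-treated APPPS1ΔE9 mouse 4, with 10.1 CPM for Col9a3, 1.09 for Col4a4 and 7.81 for Col1a2, and in anle138b-treated WT mouse 4, with 12 CPM for Col9a3 and 0.45 for Col17a1. Both were the only mice of their groups with low choroid plexus markers.

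Among placebo-treated APPPS1ΔE9 mice of 10 months, mouse 1 was high in Col23a1 (56.6 CPM), Col5a1 (47.6), Col19a1 (44.3) and Col24a1 (2.27), and mouse 2 in Col4a1 (128 CPM) and Col27a1 (45.4). Mouse 5 was high in Col15a1 at 7.27 CPM. Among anle138b-treated APPPS1ΔE9 mice of 10 months, Col23a1 was 43.0 CPM in mouse 4 and Col6a6 was 3.84 CPM in mouse 7. Among WT mice of 10 months, Col27a1 was 64.2 CPM in anle138b-treated mouse 4, Col6a3 was 22.7 CPM in anle138b-treated mouse 3, and in placebo-treated mice Col2a1 was 3.52 CPM in mouse 2 and Col24a1 1.33 CPM in mouse 4. At 6 months, Col20a1 was 5.14 CPM in anle138b-treated APPPS1ΔE9 mouse 1, and in anle138b-treated WT mice Col1a1 was 9.32 CPM in mouse 1, Col7a1 9.57 CPM in mouse 2 and Col24a1 1.13 CPM in mouse 3.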

How the results depend on the processing

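Of the counts of members called or related, 520 values under alternatives stayed within 1.5 times the reported one and 37 moved, and of the values of single genes 1243 kept their call, 51 lost it and 19 reversed. With DESeq2 the calls numbered 2 for anle138b in APPPS1ΔE9 mice at 6 months, 3 for genotype under anle138b and 2 for averaged genotype, where edgeR gave 0. With Y-linked expression in the model they numbered 3 (Col4a1, Col4a2, Col11a1), 1 (Col6a4) and, for genotype under anle138b at 10 months, 1 (Col25a1). Without the 3 libraries that stood apart Col27a1 alone (1) was called for averaged genotype at 10 months, by 0.36 (edgeR adjusted p = 0.0752). These libraries include the mice with 45.4 and 64.2 CPM of Col27a1, placebo-treated APPPS1ΔE9 mouse 2 and anle138b-treated WT mouse 4. The omission thus took out the outlying values of this gene, so the call is no independent result.

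Same-numbered mice of different groups correlated with each other by -0.548 to 0.567 and in no comparison did every pair exceed 0.1, so they share only a number. With the replicate block 1 member was called for averaged genotype at 6 months (Col4a2, edgeR adjusted p = 0.0968) and 22 between cohorts.

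Leaving out single mice gave 0 to 1 members in each of 3 comparisons at 6 months and 0 in the other 11. These calls were Col6a4 for anle138b in APPPS1ΔE9 mice without placebo-treated mouse 1. For genotype under anle138b they were Col11a2 without APPPS1ΔE9 mouse 4 and Col6a4 without WT mouse 4. For averaged genotype they were Col6a6 without placebo-treated APPPS1ΔE9 mouse 3 or 4 and Col11a2 without placebo-treated WT mouse 1. Between cohorts the count ran from 22 to 26. Relations ran from 5 to 9 for meninges, 2 to 6 for endothelium, 1 to 5 for mural cells and 4 to 14 for thalamus. Col1a2 lost its call between cohorts without any of 19 single mice, Col3a1 of 7, Col14a1 of 4 and Col4a5 of 1.

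Between cohorts, log2 fold changes turned positive with the choroid plexus covariate for Col8a1 (0.027), Col3a1 (0.042), Col1a2 (0.23), Col14a1 (0.25), Col9a3 (0.41), Col4a5 (0.49), Col17a1 (0.56), Col4a4 (0.66) and Col4a3 (0.66). Without the mice high in choroid plexus they turned positive for Col3a1 (0.12), Col9a3 (0.20), Col1a2 (0.26), Col14a1 (0.26), Col17a1 (0.29), Col4a3 (0.39), Col4a4 (0.41) and Col4a5 (0.41), and with the meninges covariate for Col3a1 (0.15) and Col1a2 (0.22). The cause was not tested.

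Relations to endothelium, mural cells and thalamus numbered 0, 0 and 0 with the median of the list and 0, 0 and 0 within the 6-month cohort. Within the 10-month cohort they numbered 3 for meninges, 0 for endothelium, 0 for mural cells and 1 for thalamus. Without the 2 mice farthest from the median they numbered 2, 1 and 1 for endothelium, mural cells and thalamus, and without the 3 libraries 1 for mural cells and 4 for thalamus.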
